A study of Mus musculus with 8 samples.

Results

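The 40 genes described here encode the subunits of voltage-gated sodium and calcium channels in the mouse. They were taken by symbol from a table of 32543 genes: every Scn gene of an alpha or beta subunit (10 and 4 genes), every Cacna1 gene of a calcium channel pore (10 genes, 7 of them high-voltage activated and 3 T-type), the 4 Cacna2d genes, the 4 Cacnb genes and the 8 Cacng genes. Of these, 30 had enough counts to be tested between genotypes and 10 did not. All 8 libraries were used, 4 from knockout and 4 from control embryos.

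Voltage-gated sodium channels open on depolarisation and carry the rising phase of the action potential. The pore is a single large alpha subunit, and the small beta subunits adjust its gating and anchor it at the membrane. Voltage-gated calcium channels turn depolarisation into calcium entry, which drives transmitter release, dendritic signalling and activity-dependent transcription. Their alpha1 pore works with a cytoplasmic beta subunit and an extracellular alpha2delta subunit that raise its level at the cell surface, while most members of the gamma family act in brain as companions of AMPA receptors and are called TARPs.

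The cells were intercalated cells of the amygdala, clusters of inhibitory neurons, isolated at E16.5 by sorting for GFP. Knockout embryos were Tshz1 GFP/RA and control embryos Tshz1 GFP/+, both kept on an outbred background, so each genotype carried a GFP allele of Tshz1 and the controls were not wild type at this locus. Embryos of a genotype were pooled before each sort. Titles carry the prefixes NX, NY, QT and RM, each shared by 1 knockout and 1 control library, and the labels do not say what a prefix marks, what the RA allele lacks, or whether the pools came from separate litters. P-values therefore measure the spread between these pools, and in sorted bulk cells fewer cells of a type and less RNA per cell cannot be told apart. The series' design text speaks of triplicates, while the labels hold 4 libraries per genotype.

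Knockout libraries held 6384571 to 13295690 expected counts and control libraries 5785612 to 14535867. Tshz1, the disrupted gene and the check of the labels, stood at 121, 61.6, 78.1 and 55.9 CPM, counts scaled to library size, in the NX, NY, QT and RM knockout libraries, against 492, 240.0, 457 and 337 CPM in the same order of control libraries. It fell 4.81-fold in the knockout (log2 fold change -2.27, SE 0.30, adjusted p = 0.0388, edgeR quasi-likelihood with Benjamini-Hochberg over all tested genes). The fold was steady over 23 alternative settings (log2 -2.55 to -2.11), but Tshz1 was called in 12 of them, with an adjusted p of up to 0.618. The call was lost, among other settings, without knockout NY, QT or RM or control NX, QT or RM. No gene at all was called without both NY, both QT or both RM libraries, nor without control NX and knockout QT. Markers of intercalated cells summed to 503 to 1097 TPM, a level per transcript length, in knockout and 906 to 1910 TPM in control libraries, and the list holds Tshz1 itself. Markers of pallial glutamatergic neurons summed to 126 to 362 TPM in knockout and 26.2 to 221 TPM in control libraries, and those of cycling progenitors to 161 to 549 TPM in knockout and 110 to 412 TPM in control libraries. Skeletal muscle and heart markers summed to at most 6.51 TPM in knockout and 5.58 TPM in control libraries. Of the tested markers, 4 pallial ones were fitted higher in the knockout and 2 lower, and 6 cycling ones higher and 3 lower. All tested microglial (6), vascular (3) and astrocyte (3) markers were fitted lower. Microglial markers summed to 17.9 to 33.2 TPM in knockout and 6.71 to 81.8 TPM in control libraries. For MGE interneurons 3 markers were fitted higher and 0 lower, and for the oligodendrocyte lineage 1 higher and 4 lower.

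No channel gene passed the test between genotypes. Across all 14157 tested genes, 5 (0.0353%) were called at an adjusted p under 0.05, and among the 30 tested channel genes the count was 0, with an adjusted p of 1.00 for each. At an unadjusted p under 0.05 there was 1 channel gene, Cacna2d3 (3.33% of those tested), against 512 of all tested genes (3.62%). The fitted value was lower in the knockout for 17 channel genes (56.7%) and higher for 13, against 50.6% lower among all tested genes. The median log2 fold change was -0.10 over the tested channel genes and -0.01 over all tested genes. Fold changes of channel genes ran from -1.003 to 0.58 on the log2 scale, and 8 of the 30 (26.7%) were beyond 0.5 in either direction, against 23.2% of all tested genes. Their standard errors ran from 0.19 to 0.99 with a median of 0.34. The shares of channel genes were thus close to the background in each of these counts.

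**Figure D1:**
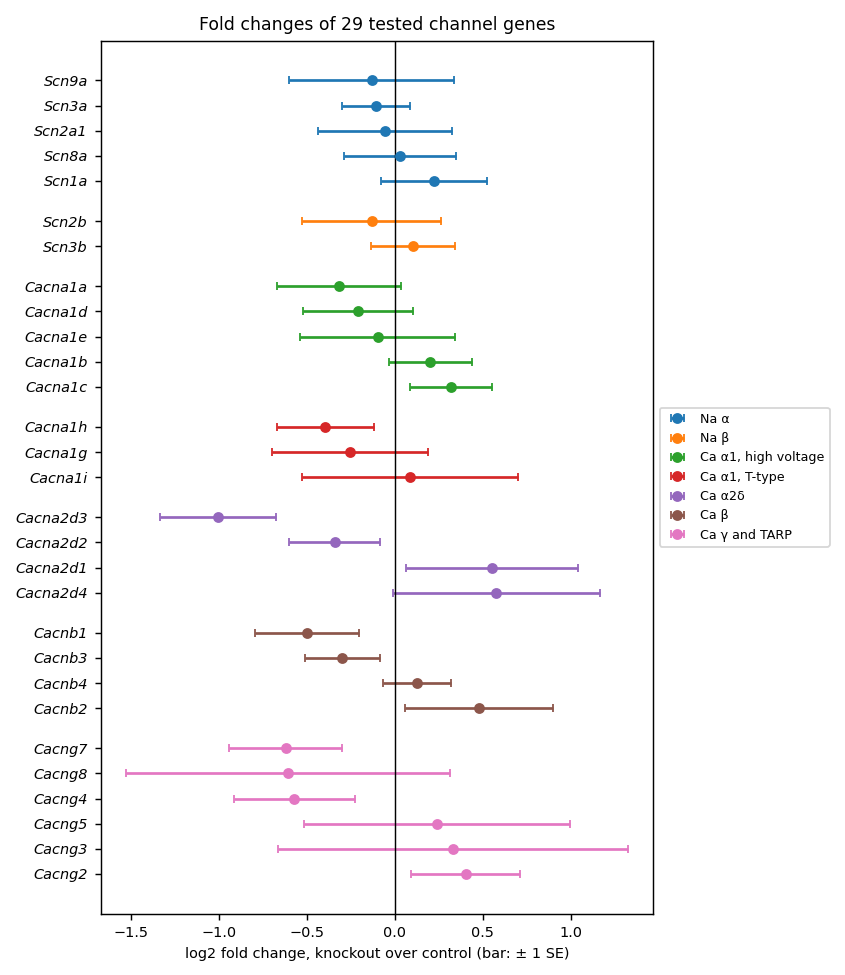
Log2 fold change of 29 tested channel genes, knockout over control, by subunit family (points, fitted value; bars, plus or minus 1 SE; horizontal axis, log2 fold change). Cacna2d3 lies farthest to the left at -1.003 and Cacna2d4 farthest to the right at 0.58, and no gene was called.

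Levels can be compared between genes on the TPM scale, which is per transcript length. Among the sodium alpha subunits, Scn3a, the channel typical of embryonic and neonatal brain, had the highest level, with a mean of 51.5 TPM over the 8 libraries (38.8 to 62.8). Scn8a, whose protein gathers at the axon initial segment and nodes of Ranvier, followed at 17.6 TPM (10.5 to 24.5), and the ranges of these genes did not overlap. Scn1a, associated with inhibitory interneurons, averaged 11.0 TPM, and Scn2a1, the file's symbol for the Scn2a gene of excitatory axons, 8.99 TPM. Scn9a, best known from nociceptors, averaged 2.24 TPM. Scn3a made up 54.7 ± 6.05% of the summed alpha-subunit TPM in knockout and 56.8 ± 3.28% in control libraries (SD, n = 4 each), and from 45.9% to 60.0% in any library.

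**Figure D2:**
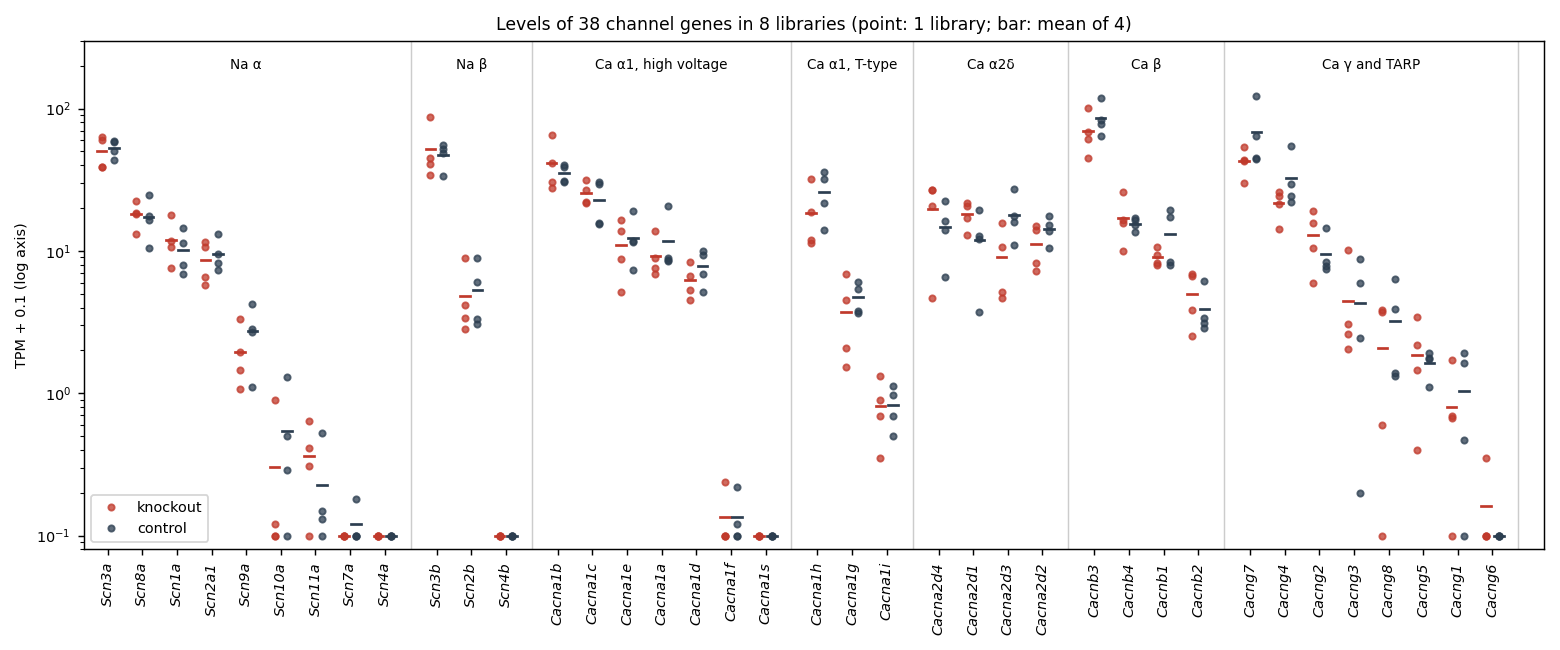
Level of 38 channel genes in the 8 libraries (vertical axis, TPM + 0.1 on a log scale; points, libraries; bars, mean of 4). Knockout and control ranges of each gene drawn overlap on the TPM scale, and Scn3a, Scn3b, Cacna1b, Cacna1h, Cacna2d4, Cacnb3 and Cacng7 have the highest mean of their families.

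Between genotypes the abundant sodium alpha subunits differed by less than the spread between libraries. Scn3a had 205, 136, 178 and 181 CPM in the NX, NY, QT and RM knockout libraries, against 202, 162, 176 and 214 CPM in the control libraries. The groups overlapped, and the log2 fold change was -0.11 (SE 0.19). Scn8a had 90.8, 81.2, 105 and 167 CPM in knockout and 90.6, 66.2, 95.7 and 183 CPM in control libraries. The RM library was the highest and the NY library the lowest in both genotypes, and the log2 fold change was 0.03 (SE 0.32). Scn1a had a log2 fold change of 0.22 (SE 0.30), Scn2a1 of -0.06 (SE 0.38) and Scn9a of -0.13 (SE 0.47). Summed over the family, alpha subunits stood at 91.4 ± 18.9 TPM in knockout and 93.6 ± 16.97 TPM in control libraries (SD, n = 4 each).

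The 4 untested sodium alpha subunits were at or near 0. Scn4a, the skeletal muscle channel, had 0 counts in all 8 libraries, where 3 counts would have been 0.186 to 0.545 CPM. Scn7a, which encodes a sodium-level sensor rather than a voltage-gated channel, had 2 counts in the control RM library and 0 in the others. Scn10a and Scn11a, the tetrodotoxin-resistant channels of nociceptors, reached at most 14 and 16 counts in a library.

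Among the sodium beta subunits, Scn3b averaged 49.6 TPM and Scn2b 4.98 TPM, while Scn4b had 0 counts in every library. Scn3b had 139, 84.8, 88.9 and 110 CPM in the knockout libraries and 86.1, 70.4, 110 and 127 CPM in the control libraries, taken as NX, NY, QT and RM. The groups overlapped (log2 fold change 0.10, SE 0.24). Scn2b had 17.02, 9.85, 7.46 and 10.5 CPM in knockout and 18.04, 15.0, 6.66 and 9.45 CPM in control libraries, with the NX library the highest in both genotypes and the QT library the lowest (log2 fold change -0.13, SE 0.39). Scn3b held 91.3% of the summed beta-subunit TPM in knockout and 88.9% in control libraries on average.

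Several sodium channel genes are neighbours (GENCODE vM21, GRCm38). Chromosome 2 holds, in order, Scn3a (65457118 to 65567627, minus strand), Scn2a1 (65620771 to 65767447, plus), Scn1a (66270778 to 66440840, minus), Scn9a (66480080 to 66634962, minus) and Scn7a (66673425 to 66784914, minus). Along this stretch the level ran from 51.5 TPM for Scn3a to 0.010 TPM for Scn7a, so neighbours differed widely. Scn2b and Scn4b are neighbours on chromosome 9 (45117782 to 45130070 and 45138395 to 45154152, both plus), with 4.98 TPM and 0 TPM. Counts of Scn1a, Scn2a1, Scn3a, Scn9a and Cacna1b were not whole in any library, so fragments of these genes were shared with other places in the authors' estimate and their levels are less certain.

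Of the 7 high-voltage activated calcium channel pores, 5 were tested. Cacna1b, the N-type pore of presynaptic terminals, averaged 38.2 TPM and Cacna1c, the main L-type pore of neurons and heart, 24.1 TPM, with Cacna1b above Cacna1c in each of the 8 libraries. Cacna1e (R-type) averaged 11.6 TPM, Cacna1a (P/Q-type) 10.4 TPM and Cacna1d (L-type) 6.95 TPM. The value of Cacna1a rests on a deposited length of 2427 to 5352 bases, where the longest GENCODE model has 7926. In CPM, Cacna1a averaged 17.2 in knockout and 21.4 in control libraries, below Cacna1d at 26.7 and 31.0, so the order of these genes depends on the length used. Cacna1s, the L-type pore of skeletal muscle, had 0 counts in all 8 libraries, and Cacna1f, the retinal L-type pore, at most 2. Cacna1b had 277, 206, 153 and 234 CPM in the NX, NY, QT and RM knockout libraries and 175, 173, 152 and 258 CPM in the control libraries, with overlapping groups (log2 fold change 0.20, SE 0.23). Cacna1c had 170, 180, 152 and 192 CPM in knockout and 96.8, 113, 146 and 202 CPM in control libraries. The NX and NY controls were the lowest and the RM control the highest of all 8, and the log2 fold change stood at 0.32 (SE 0.23, unadjusted p = 0.199). Without the control RM library it was 0.55, the largest value when 1 library was left out, and still not called. Cacna1a (-0.32, SE 0.35), Cacna1d (-0.21, SE 0.31) and Cacna1e (-0.10, SE 0.44) had log2 fold changes below 0. Summed pore TPM of this class was 93.1 ± 28.9 in knockout and 89.4 ± 14.6 in control libraries.

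The T-type pores open near the resting potential and support burst firing. Cacna1h averaged 22.1 TPM, Cacna1g 4.14 TPM and Cacna1i 0.721 TPM, and Cacna1h held 80.3% of the T-type TPM in knockout and 81.6% in control libraries. Cacna1h had 101, 68.5, 45.4 and 68.1 CPM in the knockout libraries, against 107, 57.8, 114 and 93.4 CPM in the control libraries. The NY control lay below 3 of the 4 knockouts, so the groups overlapped (log2 fold change -0.39, SE 0.28, unadjusted p = 0.178). Cacna1g had 24.0, 6.79, 5.94 and 21.1 CPM in knockout and 13.7, 16.7, 16.9 and 22.2 CPM in control libraries (log2 fold change -0.26, SE 0.44). Its knockout values formed a higher pair (NX and RM) and a lower pair (NY and QT), and every control lay above the lower pair. Cacna1i ranged from 1.33 to 6.82 CPM in knockout and from 2.22 to 6.72 CPM in control libraries.

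The largest fitted difference of the 30 tested genes was in the alpha2delta family. Cacna2d3, an alpha2delta subunit linked to pain sensitivity in flies and mice, had 23.8, 9.03, 19.2 and 15.5 CPM in the NX, NY, QT and RM knockout libraries, against 44.6, 22.1, 31.4 and 37.3 CPM in the control libraries. For each of the 4 prefixes the knockout library was the lower one, as for 5 of the 30 tested channel genes (16.7%) and 8.49% of all tested genes, while the NX knockout lay just above the NY control, so the groups touched. Means were 16.9 ± 6.25 CPM in knockout and 33.9 ± 9.48 CPM in control libraries (SD, n = 4 each), and 8.92 ± 5.16 TPM against 17.8 ± 6.79 TPM. The log2 fold change was -1.003 (SE 0.33), a 2.00-fold lower level, with a raw p of 0.00978 that became 1.00 once adjusted over all genes (edgeR quasi-likelihood, Benjamini-Hochberg). The difference thus failed the correction. Its unadjusted p was under 0.05 in each of 23 alternative settings, with log2 fold changes from -1.22 to -0.79, and it was called in none of them. These settings refit the same libraries or subsets of them, so they are not separate evidence for a gene picked by its p. With the title prefix as a block, 7.16% of all tested genes and 2 channel genes, Cacna2d3 and Cacna2d1, were at an unadjusted p under 0.05. All of its counts were whole, and no exon of another gene overlaps its exons on chromosome 14 (28904943 to 29721864, minus strand). The intercalated-cell marker sum was also lower in the knockout library of each prefix (for NX, 1097 TPM in knockout and 1910 TPM in control), and its part in the level of Cacna2d3 was not tested.

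**Figure D3:**
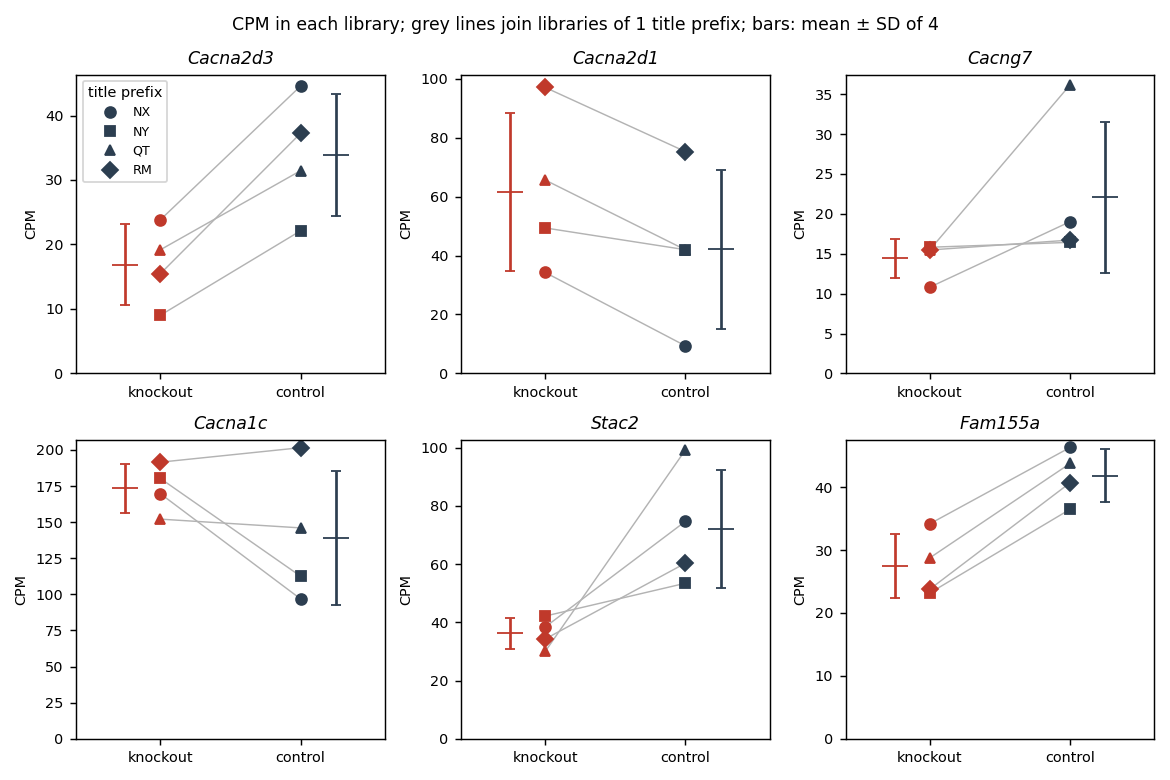
CPM of Cacna2d3, Cacna2d1, Cacng7, Cacna1c, Stac2 and Fam155a in each library, with knockout left and control right (vertical axes, CPM from 0; symbols, title prefix; grey lines join libraries of a prefix; bars, mean ± SD of 4). Cacna2d3 spans 9.03 to 23.8 CPM in knockout and 22.1 to 44.6 CPM in control libraries.

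The other 3 alpha2delta genes differed by less, relative to their spread. Cacna2d1, the gabapentin-binding subunit, had 34.2, 49.4, 65.6 and 97.0 CPM in the knockout libraries and 9.36, 42.0, 41.9 and 75.2 CPM in the control libraries. The knockout value was the higher for each prefix, as for 2 of the 30 tested channel genes (6.67%) and 8.32% of all tested genes, while the groups overlapped (log2 fold change 0.55, SE 0.49, unadjusted p = 0.278). The control NX library, lowest for Cacna2d1, also had the lowest sums of pallial (26.2 TPM), cycling (110 TPM), MGE interneuron (42.6 TPM), microglial (6.71 TPM), vascular (1.68 TPM), oligodendrocyte (0.52 TPM), astrocyte (0.59 TPM) and muscle and heart markers (2.82 TPM). It had the highest sums of intercalated (1910 TPM) and GABAergic markers (1510 TPM), and the part of this makeup in the level of Cacna2d1 was not tested. Cacna2d4, known from the photoreceptor synapse, had 4.70, 27.6, 32.6 and 55.4 CPM in knockout and 15.995, 22.3, 7.81 and 34.7 CPM in control libraries, with the knockout NX library the lowest of all 8 (log2 fold change 0.58, SE 0.59). Cacna2d2, the subunit lost in ducky mice, had 21.3 to 38.7 CPM in knockout and 32.2 to 54.2 CPM in control libraries (log2 fold change -0.34, SE 0.26). On the TPM scale the family was the most even, with means over 8 libraries of 17.2 TPM for Cacna2d4, 14.9 for Cacna2d1, 13.4 for Cacna2d3 and 12.6 for Cacna2d2, and overlapping ranges. The value of Cacna2d4 rests on a model of 2581 to 2630 bases, where the longest GENCODE model has 5803. The family sum was 57.5 ± 11.6 TPM in knockout and 58.6 ± 11.0 TPM in control libraries. Within it, Cacna2d3 held 16.2 ± 11.2% of the TPM in knockout and 30.5 ± 10.5% in control libraries, and Cacna2d1 31.3 ± 3.75% in knockout and 20.4 ± 9.78% in control libraries. The share of Cacna2d1 was 26.7%, 34.5%, 29.7% and 34.2% in the knockout libraries and 5.80%, 24.4%, 25.1% and 26.4% in the control libraries, which did not overlap. Of the 37 members with a share above 0, 3 had shares without overlap, all higher in the knockout: Cacna2d1, Cacnb4 (15.2% to 17.997% in knockout and 10.4% to 15.1% in control libraries) and Cacng2 (9.08% to 19.96% in knockout and 7.10% to 8.92% in control libraries). On the CPM and TPM scales the knockout and control libraries overlapped for each of these 3 genes. Shares within a family depend on each other, and no background share over other genes was computed. These shares were singled out after their values were seen and were not tested.

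**Figure D4:**
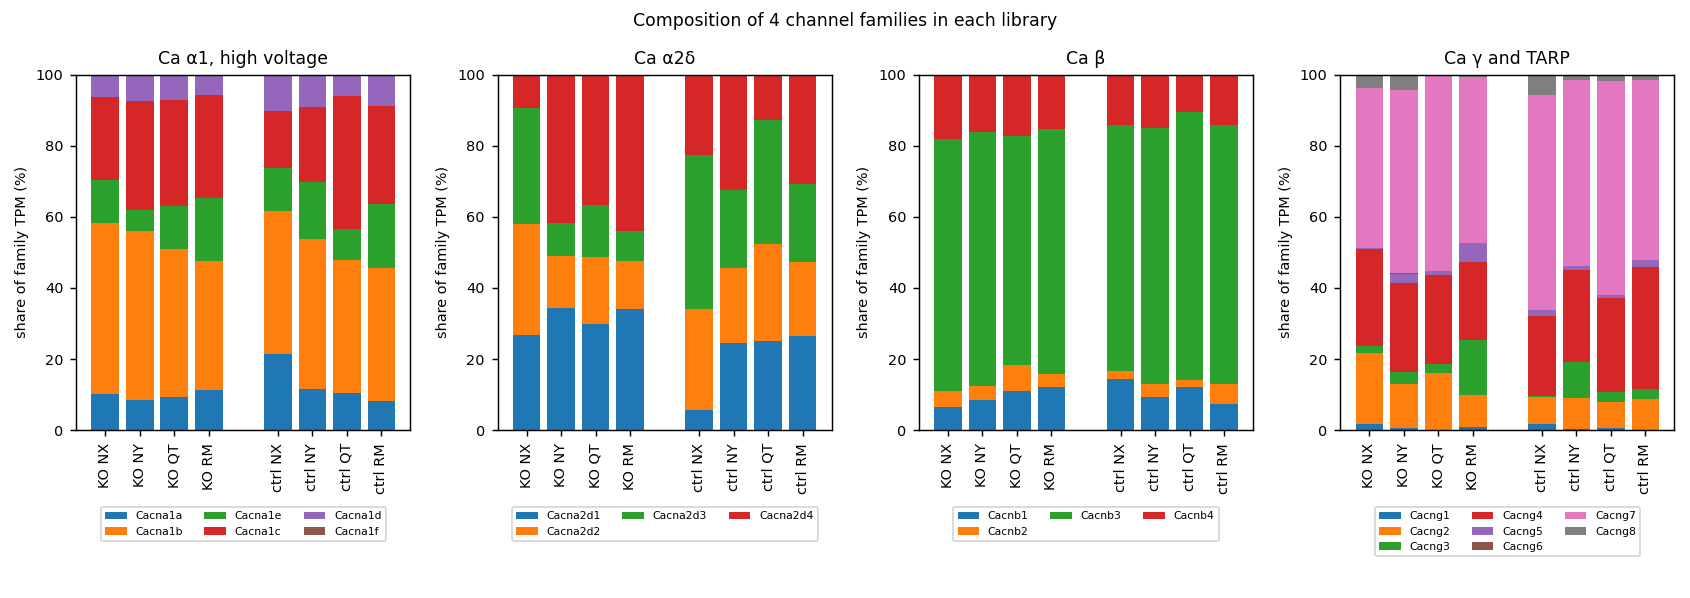
Share of the summed family TPM held by each member in 4 channel families, per library (vertical axes, percent of family TPM; stacked bars, members; KO, knockout). In the alpha2delta panel Cacna2d3 ranges from 8.36% to 32.5% in knockout and from 21.96% to 43.5% in control libraries.

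Cacnb3, a beta subunit paired with N-type and L-type pores, was the highest of all 40 genes on the TPM scale, with a mean of 77.4 TPM. Cacnb4, the subunit lost in lethargic mice, averaged 16.2 TPM, Cacnb1, the beta subunit of skeletal muscle, 11.0 TPM and Cacnb2, prominent in heart, 4.33 TPM. Cacnb3 had 105, 92.7, 76.3 and 93.3 CPM in the NX, NY, QT and RM knockout libraries and 93.0, 89.6, 147 and 123 CPM in the control libraries, so the QT and RM controls lay above all knockouts and the others among them (log2 fold change -0.30, SE 0.21). Cacnb4 had 88.1, 66.7, 66.2 and 66.4 CPM in knockout and 61.1, 59.5, 66.5 and 76.5 CPM in control libraries (log2 fold change 0.13, SE 0.19). An antisense gene, A430018G15Rik, overlaps 1433 exon bases of Cacnb4, and since libraries were made without strand marking, reads of the pair cannot be told apart. Shorter antisense or opposite-strand overlaps also touch exons of Cacna1a, Cacna1d, Cacna1h, Cacna2d2, Cacnb1, Cacnb2, Cacng2 and Scn9a. Cacnb1 had 12.5 to 13.8 CPM in knockout and 13.3 to 26.6 CPM in control libraries (log2 fold change -0.50, SE 0.30), a tight knockout range beside a wide control range. Cacnb2 had a log2 fold change of 0.48 (SE 0.42).

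The gamma family was led by Cacng7 at 55.8 TPM and Cacng4 at 27.0 TPM. Both levels rest on short transcript models in the deposited tables, 831 to 856 bases for Cacng7 and 984 bases for Cacng4, where the longest GENCODE models have 2212 and 3500 bases, and a shorter length gives a higher TPM for the same count. Cacng7, a type II TARP, had 10.8, 15.8, 15.5 and 15.5 CPM in the knockout libraries and 19.0, 16.4, 36.2 and 16.7 CPM in the control libraries. Every knockout value was below every control value on the CPM scale, which held for 1 of the 30 channel genes (3.33%), while 2.59% of all tested genes were without overlap in either direction and 1.46% were lower in the knockout. On the TPM scale the groups overlapped, with 43.0, 43.8, 54.0 and 30.1 TPM in knockout and 64.4, 44.6, 123 and 43.9 TPM in control libraries. The fitted log2 difference was -0.62 (SE 0.32, unadjusted p = 0.0761), and it was -0.27 when the control QT library, the highest, was left out. Cacng4, a type I TARP, had 8.10, 9.52, 8.98 and 8.98 CPM in knockout and 8.74, 10.1, 20.3 and 13.8 CPM in control libraries (log2 fold change -0.57, SE 0.35), and without the control QT library -0.28. The control QT library was the highest of the 8 for both genes. The family sum, 85.8 ± 15.4 TPM in knockout and 121 ± 56.7 TPM in control libraries, carried the same library at 204 TPM.

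Cacng2, which encodes stargazin, averaged 11.1 TPM and had 13.6 to 22.3 CPM in knockout and 10.4 to 19.97 CPM in control libraries (log2 fold change 0.40, SE 0.31). Cacng3, a type I TARP, averaged 4.30 TPM, and its knockout RM library stood apart at 11.3 CPM beside 1.09 to 2.24 CPM in the other knockouts, against 0.062 to 6.74 CPM in controls. Cacng8, a hippocampal type I TARP, averaged 2.55 TPM and Cacng5, a type II TARP, 1.66 TPM. The calcium channel gamma subunit of skeletal muscle, Cacng1, reached at most 14 counts and Cacng6 1 count. On chromosome 7 the neighbours Cacng7 (3332955 to 3368221), Cacng8 (3390683 to 3415648) and Cacng6 (3424195 to 3435667), all on the plus strand, had 55.8, 2.55 and 0.031 TPM. On chromosome 11 Cacng1 (107703218 to 107716522), Cacng4 (107732357 to 107794557) and Cacng5 (107874605 to 107915055), all on the minus strand, had 0.812, 27.0 and 1.66 TPM.

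Promoter windows of 300 bases, 250 before and 50 after the transcription start, were matched in RefSeq (GRCm38.p6) for 30 of the 40 genes, with 41 windows. The windows below are shown for Cacna2d3 and Cacna2d1, whose alpha2delta shares differed most between genotypes, for the abundant Scn8a, and for Scn7a, which was at 0 in 7 of 8 libraries. Letters are 5′ to 3′ on the strand of the gene, and capitals mark each CpG dinucleotide. The windows are chr14:29721815-29722114 (minus) for Cacna2d3, chr5:15934441-15934740 (plus) for Cacna2d1, chr15:100870395-100870694 (plus) for Scn8a and chr2:66784861-66785160 (minus) for Scn7a.
Cacna2d3: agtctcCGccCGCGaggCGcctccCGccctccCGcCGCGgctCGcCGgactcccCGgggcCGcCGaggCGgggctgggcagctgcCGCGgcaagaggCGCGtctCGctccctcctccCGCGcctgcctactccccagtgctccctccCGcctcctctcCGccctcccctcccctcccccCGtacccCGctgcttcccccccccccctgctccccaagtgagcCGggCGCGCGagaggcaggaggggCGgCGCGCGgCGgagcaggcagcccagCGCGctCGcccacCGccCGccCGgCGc
Cacna2d1: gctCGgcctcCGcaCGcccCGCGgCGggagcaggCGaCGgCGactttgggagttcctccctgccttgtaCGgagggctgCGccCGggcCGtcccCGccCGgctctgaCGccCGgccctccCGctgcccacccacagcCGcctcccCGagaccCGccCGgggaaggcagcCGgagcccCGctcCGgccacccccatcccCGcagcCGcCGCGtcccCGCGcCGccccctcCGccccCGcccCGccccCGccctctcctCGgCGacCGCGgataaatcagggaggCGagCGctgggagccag
Scn8a: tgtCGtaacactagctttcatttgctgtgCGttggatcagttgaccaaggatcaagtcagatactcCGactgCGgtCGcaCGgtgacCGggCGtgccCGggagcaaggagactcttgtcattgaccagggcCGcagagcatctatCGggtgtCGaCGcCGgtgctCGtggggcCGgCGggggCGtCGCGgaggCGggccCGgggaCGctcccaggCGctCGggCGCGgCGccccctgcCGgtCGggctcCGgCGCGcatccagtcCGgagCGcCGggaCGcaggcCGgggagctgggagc
Scn7a: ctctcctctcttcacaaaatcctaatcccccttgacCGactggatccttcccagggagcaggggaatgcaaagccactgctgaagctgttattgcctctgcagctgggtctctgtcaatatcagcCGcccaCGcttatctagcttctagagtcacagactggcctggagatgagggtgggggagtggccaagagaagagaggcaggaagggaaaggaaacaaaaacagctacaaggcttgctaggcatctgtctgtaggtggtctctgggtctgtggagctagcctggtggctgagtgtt
The windows hold 41 CpG in Cacna2d3, 42 in Cacna2d1, 38 in Scn8a and 3 in Scn7a, with GC contents of 81.3%, 80.0%, 70.0% and 54.0%. The windows of Cacna2d3 and Cacna2d1 thus have near-equal CpG counts, and that of Cacna2d2 holds 43. None of these genes was called between genotypes, and a relation of CpG count to fold change was not tested.

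Taking the window with most CpG for each gene, 14 of the 30 matched channel genes had 20 or more CpG, against 28.8% of all genes in the table. Their median was 16 CpG, against 8 over all genes. A gene with more windows has more chances of a high count, and the 30 channel genes had 41 windows, against 32851 windows for 27025 genes. Counted by window, the medians were closer, at 9 CpG for channel windows and 7 for all windows. Of channel windows 36.6% held 20 or more CpG, against 26.5% of all windows. Of the 22 tested channel genes with a window, 13 reached 20 CpG and the median was 26. Of the 8 untested ones, 1 did (Scn4b, with 26 CpG and 0 counts). At most 9 CpG were found for 6 of the tested genes, Scn2b (2), Cacng8 (2), Scn1a (5), Scn2a1 (9), Scn9a (9) and Cacng3 (9), and for 6 of the untested ones. The motif TATAAA, on either strand, was in 4.88% of channel windows and 13.6% of all windows, and GGGCGG, on either strand, in 39.0% of channel windows and 35.7% of all windows. These matches describe letters and are not evidence of binding.

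**Figure D5:**
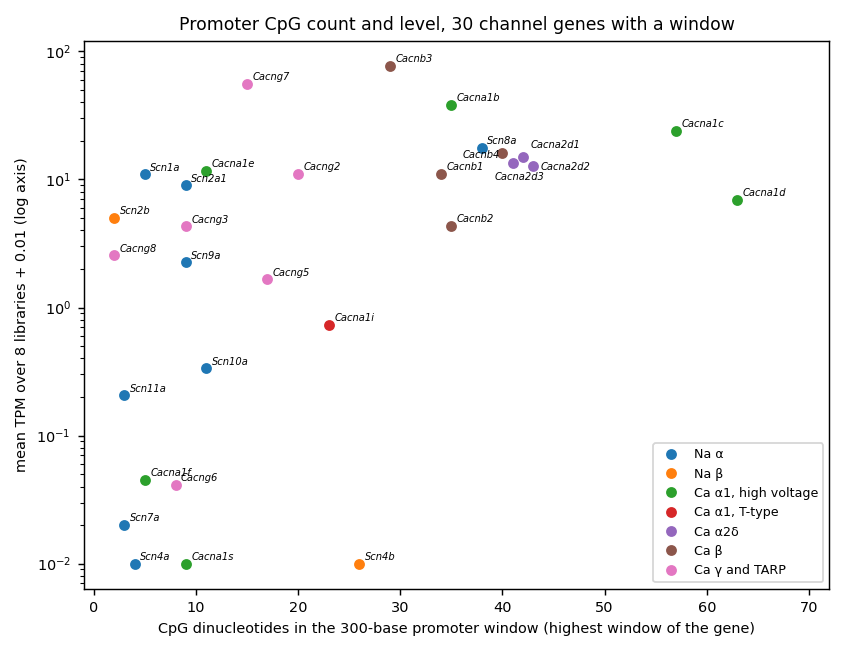
CpG dinucleotides in the promoter window with most CpG (horizontal axis, count per 300 bases) against the mean TPM over 8 libraries (vertical axis, TPM + 0.01 on a log scale) for the 30 channel genes with a window, coloured by family. Scn4b lies at 26 CpG and 0 TPM, and Scn1a at 5 CpG and 11.0 TPM.

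Genes that work with the channels were read alongside, from a list of 62 fibroblast growth factor homologues, ankyrins, kinases, scaffolds, calcium sensors and related proteins. Of these, 60 were in the table and 51 were tested, 0 were called and 2 (3.92%) had an unadjusted p under 0.05, against 3.62% of all tested genes. Both were lower in the knockout, as were 1.91% of all tested genes at that p, while 1.7% were higher. Stac2, an adaptor that binds L-type calcium channels, had 38.4, 42.2, 30.0 and 34.3 CPM in the NX, NY, QT and RM knockout libraries, against 74.7, 53.4, 99.2 and 60.3 CPM in the control libraries, with no overlap. The fitted log2 difference was -0.99 (SE 0.24, unadjusted p = 0.00125, adjusted p = 0.478). Fam155a, an auxiliary protein of the sodium leak channel NALCN, had 34.2, 23.2, 28.8 and 23.8 CPM in knockout and 46.3, 36.5, 43.8 and 40.7 CPM in control libraries, also with no overlap. The fitted log2 difference was -0.60 (SE 0.22, unadjusted p = 0.0179, adjusted p = 1.00). Groups without overlap in CPM were found for 2 of the 51 tested associated genes (3.92%), Stac2 and Fam155a. Among all tested genes the share was 2.59% in either direction and 1.46% with the knockout lower. Of the tested associated genes, 28 were fitted lower and 23 higher in the knockout, with a median log2 fold change of -0.06.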

How the data were processed

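RNA was measured in 8 libraries of sorted intercalated cells. The authors deposited RSEM expected counts, TPM and FPKM per gene, per the file headers, and the FPKM values were not used. Per the submitters' processing notes they used Trimmomatic 0.33, Bowtie2 and RSEM 1.2.22 with mm10. For Bowtie2 the version, and for the annotation the release, were not given in the sources used here. Expected counts need not be whole, because RSEM shares fragments that map to several places. Per the file headers, the deposited TPM values are scaled to an effective length. The gene length deposited beside it, which RSEM averages over transcript models, varied over 1.5 times between libraries for 8 of the 40 members (for Cacna1a, 2427 to 5352 bases). The cDNA kit named in the labels' protocols does not mark the strand, and no molecular identifiers were used, so a floor of 3 counts covers counting error alone.

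After rounding, expected counts went into edgeR 4.0.16 under R 4.3.3 (filterByExpr, 14157 of 32543 genes; TMM factors; glmQLFit and glmQLFTest, genotype as the single term, all 8 libraries). P-values were adjusted over all tested genes by Benjamini-Hochberg, with 0.05 as the threshold for a call. CPM are TMM-scaled, and SE come from the quasi-likelihood F. A mean is given with the SD over 4 libraries. Library values are given for members called, at an unadjusted p under 0.05, without overlap on the CPM scale, or among the 2 highest mean TPM of a family, and for associated genes at an unadjusted p under 0.05. The members, lists and tests were chosen with earlier results of these data known. Alternatives changed the composition factors, filter, test (DESeq2 1.42.0, limma 3.58.1 voom and trend), unit, replicate block, threshold and libraries. The procedure was tested on simulated data. Sequences were read from the RefSeq promoter table and positions from GENCODE vM21. Some members are counted in totals and not reported here by name.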

Additional observations from a re-analysis of the deposited data

Results flagged for a closer look

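Outliers were sought in 76 groups of 4 libraries (tested members and Tshz1 by CPM, and family sums by TPM). In 5 groups the gap of a library to its nearest neighbour exceeded Dixon's critical share of the group's range. By chance about 5% of groups would do so. Cacnb4 was at 88.1 CPM in the knockout NX library, beside 66.2 to 66.7 CPM in the other knockouts. Cacng3 was at 11.3 CPM in the knockout RM library, beside 1.09 to 2.24 CPM. Cacng7 was at 10.8 CPM in the knockout NX library, beside 15.5 to 15.8 CPM, and at 36.2 CPM in the control QT library, beside 16.4 to 19.0 CPM in the other controls. The summed TPM of the sodium beta subunits was 39.97 in the control NY library, beside 55.8 to 58.9 TPM in the other controls.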

How the results depend on the processing

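Called channel genes numbered 0 in all 23 alternatives, and 637 of 689 gene values kept their direction. The SE of channel genes ran from 0.19 to 0.99 with a median of 0.34. The simulated data held planted changes of several sizes, but no smallest detectable difference was derived from them for the channel genes. Genes called among all genes numbered 9 without composition factors, 19 without a filter, 39 by DESeq2, 2 by voom and by the robust fit, 10 on log2(TPM + 1), 11 at an adjusted p under 0.1, 3 without both NX libraries, 0 without both NY, QT or RM libraries and 0 without control NX and knockout QT (chosen after seeing the data), and 0 to 5 with 1 library left out (0 without knockout NY or QT or control NX, QT or RM, and 1 without knockout RM). The title prefix as a replicate block gave 28. Same-prefix deviations correlated at 0.385 (NX), 0.303 (NY), 0.0658 (QT) and 0.450 (RM). The highest correlation with another prefix was 0.0430 (NX), -0.00475 (NY), 0.0720 (QT) and 0.0753 (RM). Libraries of a prefix thus resembled each other most for NX, NY and RM, and QT missed narrowly. The labels do not say what a prefix marks, so the main fit holds no block and the block fit is an alternative. Channel genes at an unadjusted p under 0.05 numbered 2 with the block (Cacna2d1 at 0.76, SE 0.26, edgeR adjusted p = 0.523, and Cacna2d3 at -1.04, SE 0.23, edgeR adjusted p = 0.149), 2 without both RM libraries (Cacna1c, Cacna2d3) and 1 to 2 with 1 library left out (adding Cacna1h without knockout NX and Cacna1c without control RM). Directions reversed for 14 genes, called in no alternative, and the cause was not tested. Without both NX libraries Scn9a was 0.23, Scn3b -0.11 and Cacnb4 -0.019; without both NY, Scn2a1 0.13, Scn8a -0.023, Scn2b 0.039 and Cacna1e 0.13; without both QT, Scn1a -0.17, Scn8a -0.0031 and Cacna1i -0.28; without both RM, Scn9a 0.025, Cacng3 -1.09 and Cacng5 -0.55. Without control NX and knockout QT, Scn8a was -0.025, Scn2b 0.27, Cacna1i -0.17 and Cacng8 0.25. Without composition factors Scn8a was -0.049 and Cacna1i -0.0069. Cacna1i was -0.20 by voom, -0.023 on log2(TPM + 1), -0.10 on log2(TPM + 0.1) and -0.075 with the block, and Cacng5 -0.71 by voom, -0.14 on log2(TPM + 0.1) and -0.30 with the block. With 1 library left out, log2 fold changes ran from -0.0078 to 0.41 for Scn1a, -0.49 to 0.26 for Scn2a1, -0.22 to 0.40 for Scn8a, -0.54 to 0.12 for Scn9a, -0.41 to 0.12 for Scn2b, -0.059 to 0.25 for Scn3b, -0.53 to 0.34 for Cacna1e, -0.36 to 0.057 for Cacna1d, -0.63 to 5.6e-05 for Cacna1g, -0.23 to 0.44 for Cacna1i, -0.92 to 1.01 for Cacng3 and -0.69 to 0.62 for Cacng5.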
